A study of Mus musculus with 28 samples.

Results

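Clusters of distal H3K27Ac peaks in WT mouse embryonic stem cells (mESCs) were described as a stand-in for super-enhancers. H3K27Ac is acetylation of histone H3 at lysine 27. A peak was distal when it lay more than 1000 bp from every start of a protein-coding transcript, distal peaks with gaps of up to 12500 bp were joined into 1 stitched region, and a region was a cluster when it held 3 or more peaks. This gave 1018 clusters among 4237 stitched distal regions of the autosomes. They held 4885 of the 13749 autosomal WT H3K27Ac peaks. The other autosomal peaks were 4195 isolated distal peaks, in regions of 1 or 2, and 4669 promoter peaks.

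The peaks came from ChIP-seq of HATX, a haploid mESC line with a doxycycline-inducible Xist transgene, grown in serum and LIF. WT cells were compared with Spen KO clone 2, which descends from 1 clone and in which most of Spen is deleted, so clone and genotype cannot be told apart. Spen encodes an RNA-binding repressor that Xist recruits to silence the X chromosome. The histone lists combined 2 libraries per genotype, giving 1 list per genotype, while Oct4 had 1 list for each of 2 WT and 2 Spen KO libraries, written R1 and R2.

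H3K27Ac is deposited by the acetyltransferases p300 and CBP at active enhancers and promoters. Super-enhancers are dense groups of active enhancers, found near genes that set cell identity. In mESCs they are known for binding of Oct4, Sox2, Nanog, Klf4 and Esrrb, many of whose own genes they neighbour. They are usually ranked by ChIP signal, which peak lists do not hold.

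The sequences that follow are 200 bp windows at the highest Oct4 summit of 6 clusters, on the plus strand of mm9. The first 4 are shown because they were the windows of the pluripotency-gene and highest-Oct4 clusters with an exact match to 1 of these motifs, and those of Klf4 and Tcfap2c because Oct4 was called there in 4 and 3 libraries without one. Capitals mark a motif match on either strand: the octamer ATGCAAAT bound by Oct4, the Sox-Oct core TTGTNATGC, or TCAAGGTCA, the site bound by Esrrb. The octamer and the Sox-Oct core share the letters ATGC, so 1 site can match both.
Nanog promoter, chr6:122657399-122657598: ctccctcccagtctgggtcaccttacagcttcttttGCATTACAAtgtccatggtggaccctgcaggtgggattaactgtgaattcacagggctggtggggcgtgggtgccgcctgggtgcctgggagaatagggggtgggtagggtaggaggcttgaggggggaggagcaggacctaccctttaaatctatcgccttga
Hs2st1-nearest cluster, chr3:144076060-144076259: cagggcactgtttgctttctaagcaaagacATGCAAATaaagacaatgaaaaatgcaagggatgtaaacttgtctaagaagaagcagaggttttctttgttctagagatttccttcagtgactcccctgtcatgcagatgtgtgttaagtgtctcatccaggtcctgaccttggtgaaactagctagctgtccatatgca
Mycn upstream, chr12:12950049-12950248: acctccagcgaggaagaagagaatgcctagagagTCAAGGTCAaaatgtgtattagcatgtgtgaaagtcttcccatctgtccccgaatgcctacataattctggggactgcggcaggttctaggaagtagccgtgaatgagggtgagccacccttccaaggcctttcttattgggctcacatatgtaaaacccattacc
Esrrb intron, chr12:87842838-87843037: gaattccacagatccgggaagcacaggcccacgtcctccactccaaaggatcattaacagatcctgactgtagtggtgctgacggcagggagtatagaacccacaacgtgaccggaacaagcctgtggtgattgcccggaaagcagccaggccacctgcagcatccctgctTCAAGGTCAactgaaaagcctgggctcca
Klf4 distal, chr4:55488340-55488539: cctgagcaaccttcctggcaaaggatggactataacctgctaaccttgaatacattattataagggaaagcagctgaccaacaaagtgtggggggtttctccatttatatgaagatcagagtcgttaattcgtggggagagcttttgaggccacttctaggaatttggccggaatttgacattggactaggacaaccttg
Tcfap2c distal, chr2:172402887-172403086: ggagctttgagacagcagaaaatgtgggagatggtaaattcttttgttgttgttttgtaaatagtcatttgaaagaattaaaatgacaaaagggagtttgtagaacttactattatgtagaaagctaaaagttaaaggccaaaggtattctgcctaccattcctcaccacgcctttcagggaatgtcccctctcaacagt

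The Nanog window lay 8 bp from the annotated start, inside the span of the Nanog cluster, and its capitals are the Sox-Oct core read from the minus strand. The Hs2st1-nearest window lay 156985 bp from the closest protein-coding start, in intergenic DNA, and off the H3K27Ac peaks of both genotypes. It carried an octamer and the highest Oct4 fold enrichment of any cluster in a single library, 17.1 in WT R2. The folds in WT R1, Spen KO R1 and Spen KO R2 were 6.55, 9.52 and 13.6. The Mycn window lay 1429 bp upstream of the start and the Esrrb window was in an intron 31871 bp from the start. The Klf4 window was intergenic, 56202 bp from the start. A motif match is a description of these letters and not a shown binding site.

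The clusters held a median of 4 peaks and at most 28. Their spans ran from 1679 to 121627 bp with a median of 13684 bp, and member peaks filled 52.3% of 16.9 Mb of total span. By size, 404 clusters held 3 peaks, 231 held 4, 133 held 5, 196 held 6 to 9 and 54 held 10 or more. Values changed little across the limit of 3 peaks: peaks in 2-peak regions had a median score percentile of 45.0 in the WT list, and those of 3-peak clusters 43.3. They were kept in 48.6% and 51.9%. The 59 peaks within 100 bp below the distance limit had a median percentile of 35.7 and the 62 within 100 bp above it 36.1. Of the gaps within 1000 bp of the stitching limit, 70 were stitched and 65 were not. The score, the mean of the 2 deposited library values of a peak, had a median percentile of 45.4 in clusters, 39.7 in isolated distal peaks and 62.5 at promoters. A protein-coding start lay inside the span of 207 clusters (20.3%), within 10 kb of 370 others, and more than 100 kb away from 47. Of the member peaks, 50.9% were centred in introns, 43.3% in intergenic DNA and 5.81% in exons.

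Promoter H3K27Ac followed the mESC label. All 6 listed mESC genes (Pou5f1, Nanog, Sox2, Esrrb, Zfp42 and Klf4) had an H3K27Ac and an H3K4me3 peak at a start in both genotypes, while 0 of 12 fibroblast markers had H3K27Ac in either, and of 10 primitive endoderm markers only Sparc did. H3K4me3 did not set the lists apart, being at 10 of 10 primitive endoderm markers in both genotypes and at 6 of 12 fibroblast markers in WT and 5 in Spen KO. At Spen itself, the H3K4me3 list of Spen KO covered 24028 bp of the 70.7 kb gene in 6 peaks and that of WT 8972 bp in 4, with the longest stretch free of peaks 38.3 and 53.9 kb. Sequence under those Spen KO peaks was therefore present in the libraries, and since the ends of the deletion are not given in the sources used here, the lists do not test the genotype. The Oct4 list of WT R1 stood apart. It was the shortest at 1806 peaks, against 4111 in WT R2, 2617 in Spen KO R1 and 3028 in Spen KO R2, and 73.0% of its peaks lay within 1000 bp of a start, against 20.4% to 25.7% in the others. The Oct4 comparisons between groups in the full lists are given with and without it.

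Of 17 listed core pluripotency factors, 12 (70.6%) had a start within 50 kb of a cluster, where 10.8% of all 21410 autosomal protein-coding genes did. They were Pou5f1, Nanog, Klf2, Klf4, Klf5, Esrrb, Tbx3, Prdm14, Tcfcp2l1 (now Tfcp2l1), Myc, Mycn and Tcfap2c (now Tfap2c). Sox2, Sall4, Nr5a2, Zfp42 and Tcl1 had none within that distance. The same count was 3 of 16 for LIF, STAT3 and BMP signalling, 6 of 13 for Nodal and TGF-beta, 8 of 16 for FGF, Wnt and Notch, and 10 of 20 for chromatin and DNA methylation regulators. It was 0 of 16 for early lineage regulators, 0 of 12 for fibroblast markers and 1 of 10 for primitive endoderm markers. These genes were listed with earlier results of the data known, and no test was made on the counts.

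Fewer member peaks were found again in Spen KO than peaks of the whole list. A WT peak was called kept when a peak of the Spen KO H3K27Ac list overlapped it by at least 1 bp. Of the 4885 member peaks, 2593 were kept, or 53.1% (Wilson 95% interval 51.7 to 54.5), where 59.9% of all autosomal WT peaks were. The share was 45.9% for isolated distal peaks and 79.7% for promoter peaks. The Wilson intervals cover counting error only, and with 1 list per genotype there was no test of the difference between genotypes. Because the clusters were chosen on the WT list, the opposite choice was made too: of 3383 peaks in 745 clusters built from the Spen KO list, 70.7% (69.2 to 72.2) were kept in WT. Of the other peaks of the Spen KO list, 64.3% of isolated distal peaks and 77.1% of promoter peaks were kept in WT. The share kept in WT was thus higher than the share kept in Spen KO for isolated distal peaks too, but not for promoter peaks. A higher share in this direction was therefore not particular to clusters. The Spen KO list was the shorter, at 11932 peaks against 13922.

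The kept share followed the score of the WT peak. Across 5 equal score classes of the WT list, from the lowest up, it was 20.5%, 38.7%, 53.1%, 73.4% and 91.9% for clustered peaks. Clustered peaks were kept 7.15 percentage points more often than isolated ones (Newcombe 95% interval 5.08 to 9.20), and within the score classes the difference was 3.17, 0.44, 3.73, 5.79 and 4.86 points. The interval of the difference lay above 0 in the 2 highest classes and reached below 0 in the 3 lower ones. Clustered minus promoter peaks gave -26.6 points in all and -6.45 in the highest class, and the difference was below 0 in every class.

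**Figure D1:**
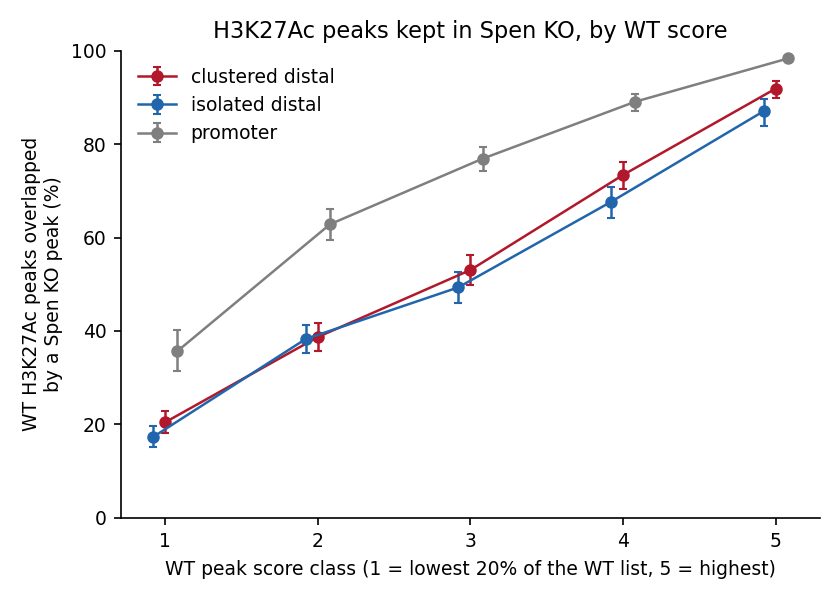
Share of WT H3K27Ac peaks (%) overlapped by a Spen KO peak, by WT score class, for clustered distal, isolated distal and promoter peaks, with Wilson 95% intervals as bars. Clustered peaks rise from 20.5% to 91.9%, close to the isolated distal peaks and below the promoter peaks in every class.

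Place and Oct4 went with the kept share as well. Among clustered peaks, 67.3% were kept in intergenic DNA (1423 of 2115), 43.1% in introns (1071 of 2486) and 34.9% in exons (99 of 284). Isolated distal peaks had the same order, at 58.2%, 35.9% and 28.7%, so it was not particular to clusters. Within the score classes, intergenic peaks were kept in 33.8%, 50.6%, 61.5%, 79.6% and 94.5%, and intron peaks in 15.6%, 31.8%, 45.5%, 68.0% and 87.3%. The intergenic share was thus the higher one in all 5 classes. Inside a cluster, the strongest peak was kept in 76.2% and the others in 47.0%, and peaks at either end in 48.2% against 56.6% for those between.

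Clustered peaks that overlapped an Oct4 peak were kept more often than those that did not. With Oct4 in at least 1 library 612 of 690 were kept, or 88.7% (86.1 to 90.8), and with Oct4 in none 1981 of 4195, or 47.2% (45.7 to 48.7). Isolated distal peaks differed in the same direction, at 75.4% with Oct4 (559 of 741) and 39.6% without (1368 of 3454). The values that follow are again of clustered peaks. Leaving WT R1 out, the shares were 88.6% and 47.3%, and with the WT libraries alone deciding they were 87.1% and 49.4%. By score class, the share was 60.9%, 66.7%, 73.2%, 87.9% and 96.7% with Oct4 and 19.7%, 37.6%, 50.7%, 70.6% and 88.4% without. The peaks with Oct4 were thus higher in all 5 classes, although the lowest class held only 23 of them.

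**Figure D2:**
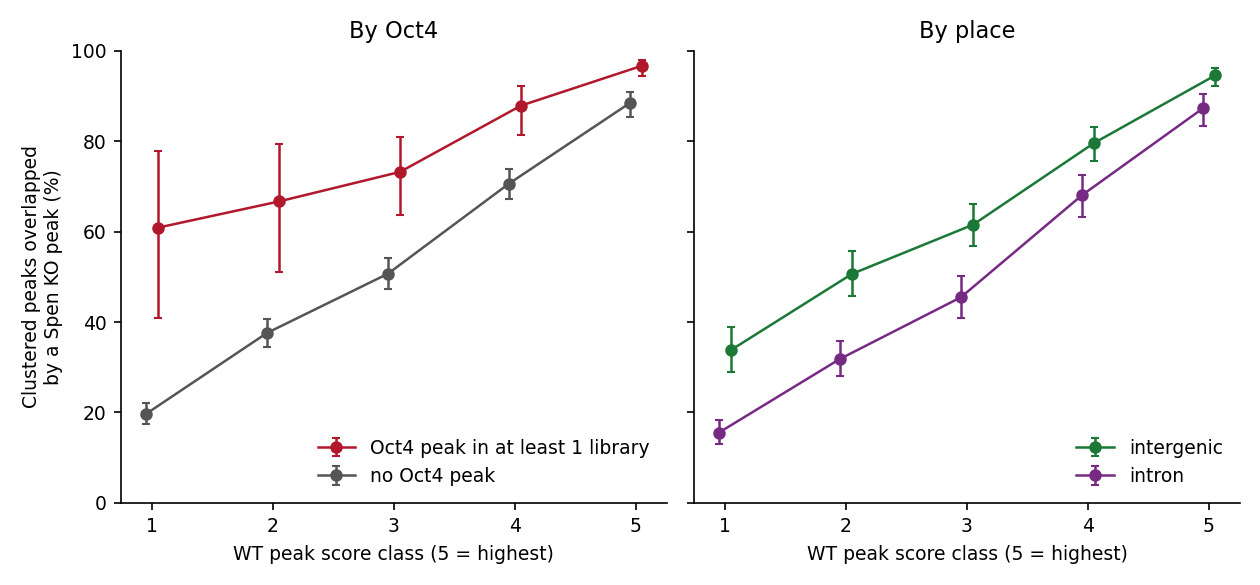
Share of clustered WT H3K27Ac peaks (%) overlapped by a Spen KO peak, by WT score class, split by Oct4 in at least 1 of 4 libraries (left) and by intergenic or intron position (right), with Wilson 95% intervals as bars. Peaks with Oct4 lie above those without, and intergenic peaks above intron peaks, in all 5 classes.

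Read per library, the Oct4 difference had the same direction throughout. The share of peaks with Oct4 was 2.62% in kept and 0.262% in not kept peaks in WT R1, 15.5% and 2.62% in WT R2, 13.2% and 1.18% in Spen KO R1, and 15.8% and 1.92% in Spen KO R2. The mean difference was 10.3 ± 5.33 points (SD, n = 4 libraries), higher in 4 of 4, with a two-sided exact sign permutation p of 0.125, the smallest that 4 libraries can give. Without WT R1 it was 12.9 points. The libraries are technical replicates according to the methods, so these p-values measure technical spread. Kept peaks were also wider, at a median of 1672 bp against 1001 bp for peaks not kept. With a window of 500 bp at each peak centre in place of the whole peak, the mean difference was 3.05 points (exact sign permutation p = 0.125).

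Most clusters were kept in part. In 203 clusters (19.9%) all peaks were kept, in 646 (63.5%) some, and in 169 (16.6%) none. The share with no peak kept was 24.8% for clusters of 3 peaks and 1.85% for those of 10 or more, where 1 of 54 lost all. Clusters with all peaks kept and those with none were of like size, at a median of 3 peaks each and spans of 9745 and 9154 bp, but their mean scores had medians of 20.2 and 13.8. In bases, WT peaks covered 9.50 Mb of the spans and Spen KO peaks 5.92 Mb, a ratio of 0.623. Outside the spans the ratio was 0.902. Over all autosomes it was 0.783, at 17.4 Mb for Spen KO and 22.2 Mb for WT. Since the spans were chosen on WT, the mirror ratio is given too: WT over Spen KO was 0.876 in the spans of Spen KO clusters. The ratio in WT spans and its mirror start from unlike totals, WT having the larger cover over all autosomes. Spen KO cover was lower than WT in 847 clusters and higher in 171, and 159 had no Spen KO base at all. Of 3326 autosomal H3K27Ac peaks found in the Spen KO list alone, 232 lay inside 156 clusters. Of the WT clusters, 469 (46.1%) overlapped a cluster built from the Spen KO list, and of the Spen KO clusters 473 (63.5%) overlapped a WT cluster. By chromosome, the kept share of member peaks ran from 38.5% on chromosome 17 to 69.3% on chromosome 1.

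**Figure D3:**
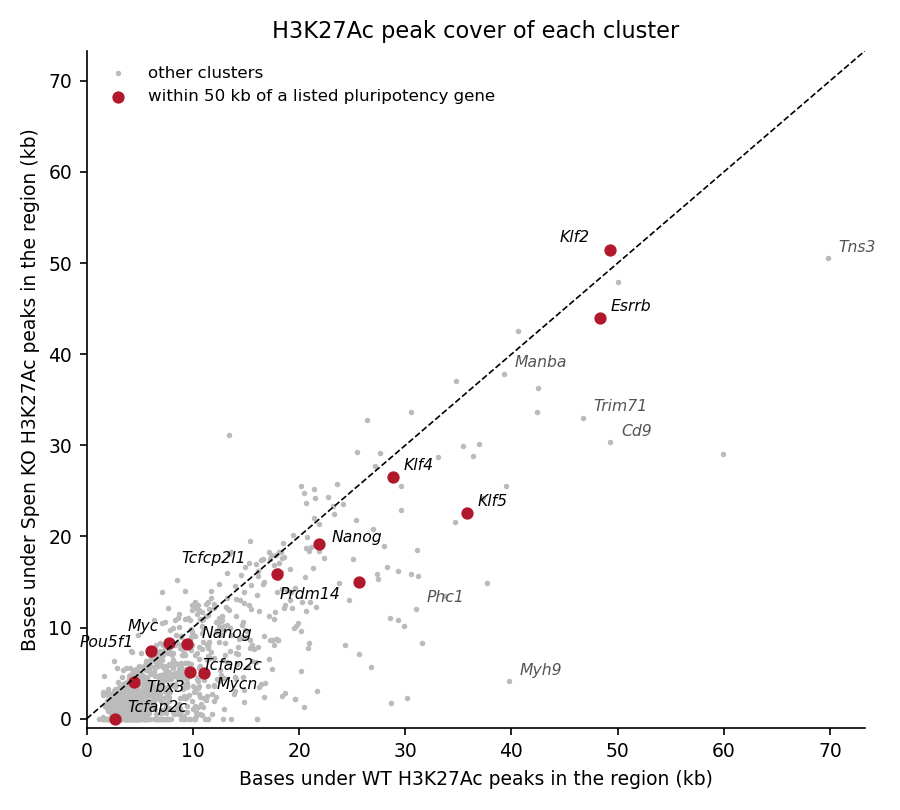
Bases (kb) under WT (x axis) and Spen KO (y axis) H3K27Ac peaks inside each of the 1018 clusters, with those within 50 kb of a listed pluripotency gene in red and some other clusters named in grey. The dashed line marks equal cover. Klf2, Pou5f1 and Myc lie at or above the line, Mycn, Prdm14 and Klf5 below it, and the distal Tcfap2c cluster at 0.

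The 14 clusters near pluripotency genes held 101 peaks, of which 73 (72.3%) were kept, beside 53.1% of all clustered and 59.9% of all autosomal peaks. These kept shares are not matched for the WT score, with which the kept share rose. All peaks were kept in 6 clusters, some in 7 and none in 1. An Oct4 peak was called in 5 of the 14 in WT R1, 13 in WT R2, 10 in Spen KO R1 and 12 in Spen KO R2, where the shares over all 1018 clusters were 10.7%, 37.9%, 30.5% and 36.1%. These shares are not matched for size, since the median over all clusters was 4 peaks. In WT R2 the share with Oct4 was 27.5% for clusters of 3 peaks, 50.5% for 6 to 9 and 77.8% for 10 or more. It was also higher for 10 or more than for 3 in the other libraries. An Oct4 peak counted anywhere in the span, and in the Nanog cluster no member peak overlapped one. Fold enrichment of Oct4 over input is given for WT R1, WT R2, Spen KO R1 and Spen KO R2 in turn. It is that of the highest peak in the span, and a library without a peak is said to have none.

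Klf4 encodes a zinc-finger factor of the pluripotency network. Its cluster, chr4:55464167-55495004, lay in intergenic DNA 49638 bp from the start, and all 5 of its peaks were kept. WT peaks covered 28822 bp of it and Spen KO peaks 26580 bp. The strongest Oct4 peaks had folds of 8.46, 13.3, 12.1 and 13.2, so all 4 libraries called it. Klf2, a related factor, had 10 of 10 peaks kept in chr8:74832031-74889518, with Oct4 folds of 5.91, 9.57, 10.6 and 14.1. The covered length was 49252 bp for WT against 51421 bp for Spen KO.

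Nanog, a homeodomain factor of self-renewal, had 2 clusters within 50 kb, both with all peaks kept. They kept 5 of 5 in the one spanning its start (chr6:122638631-122665946) and 3 of 3 in chr6:122610794-122620912, which lies nearer to Dppa3. At the first, WT R1 had no Oct4 peak and the other libraries had folds of 6.27, 6.50 and 8.80, the last being the promoter window printed above. Pou5f1, which encodes Oct4, kept 6 of 6 peaks in chr17:35622540-35636967 and had no Oct4 peak in any library. Sox2 was outside the 50 kb limit and is named after its values were seen. Its nearest cluster, chr3:34632126-34665054, was 83068 bp from the start, kept 9 of 9 peaks and had Oct4 folds of 5.91, 12.7, 7.42 and 11.7. Other listed factors also had clusters between 50 and 100 kb away. One 54180 bp from Nanog kept 1 of 3 peaks, and one 80448 bp from Tbx3 kept 5 of 5. Those 50234 and 87353 bp from Myc kept 2 of 3 and 6 of 8.

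Esrrb, a nuclear receptor that stands with Oct4 in this network, kept 11 of 13 peaks in chr12:87805166-87860058. Its Oct4 folds were 6.74, 10.8, 11.8 and 11.5. Prdm14, a repressor of differentiation signals, kept 12 of 15 peaks in chr1:13059967-13098262, with folds of 6.71, 9.80, 13.7 and 12.4. In both clusters Oct4 was called in every library, and the member peaks with Oct4 in all libraries were kept. The Esrrb peaks missing from the Spen KO list had no Oct4 peak in any library. Of those missing at Prdm14, the peak starting at 13064915 had Oct4 in WT R2 and both Spen KO libraries. The peak starting at 13092155 had it in WT R2 alone, and the one starting at 13097476 in none. At Prdm14, WT peaks covered 25633 bp and Spen KO peaks 14985 bp.

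Mycn, a Myc family factor, differed from these. Only 1 of its 6 peaks was kept in chr12:12927086-12950927, and the covered length was 11081 bp for WT against 5059 bp for Spen KO, most of it at the Mycn start. Its Oct4 folds were 8.27, 15.8, 13.7 and 12.6, the highest mean over libraries of any cluster. The window printed above lies at this Oct4 peak, on the end of a WT H3K27Ac peak and off those of Spen KO. That WT peak, at 21.868 to 23.089 kb of the span, is a promoter peak and no member. Spen KO had a peak at 21.952 to 22.758 kb. Tcfap2c, a trophoblast and germ-line factor, had 2 clusters. In chr2:172401338-172405000 none of 3 peaks was kept, with no Oct4 peak in WT R1 and folds of 6.19, 10.6 and 9.78 in the others. In chr2:172339713-172355300, 3 of 7 were kept.

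Of the remaining factors, Klf5, Tcfcp2l1 and Tbx3 kept part of the peaks in their clusters within 50 kb. Klf5 kept 8 of 13 peaks, with no Oct4 peak in WT R1 and folds of 8.45, 8.72 and 8.41 in the other libraries. Tcfcp2l1, a LIF-responsive factor, kept 3 of 6 and Tbx3 2 of 5. The Myc cluster within 50 kb kept all of its 4 peaks and had Oct4 in WT R2 alone, at a fold of 7.32.

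**Figure D4:**
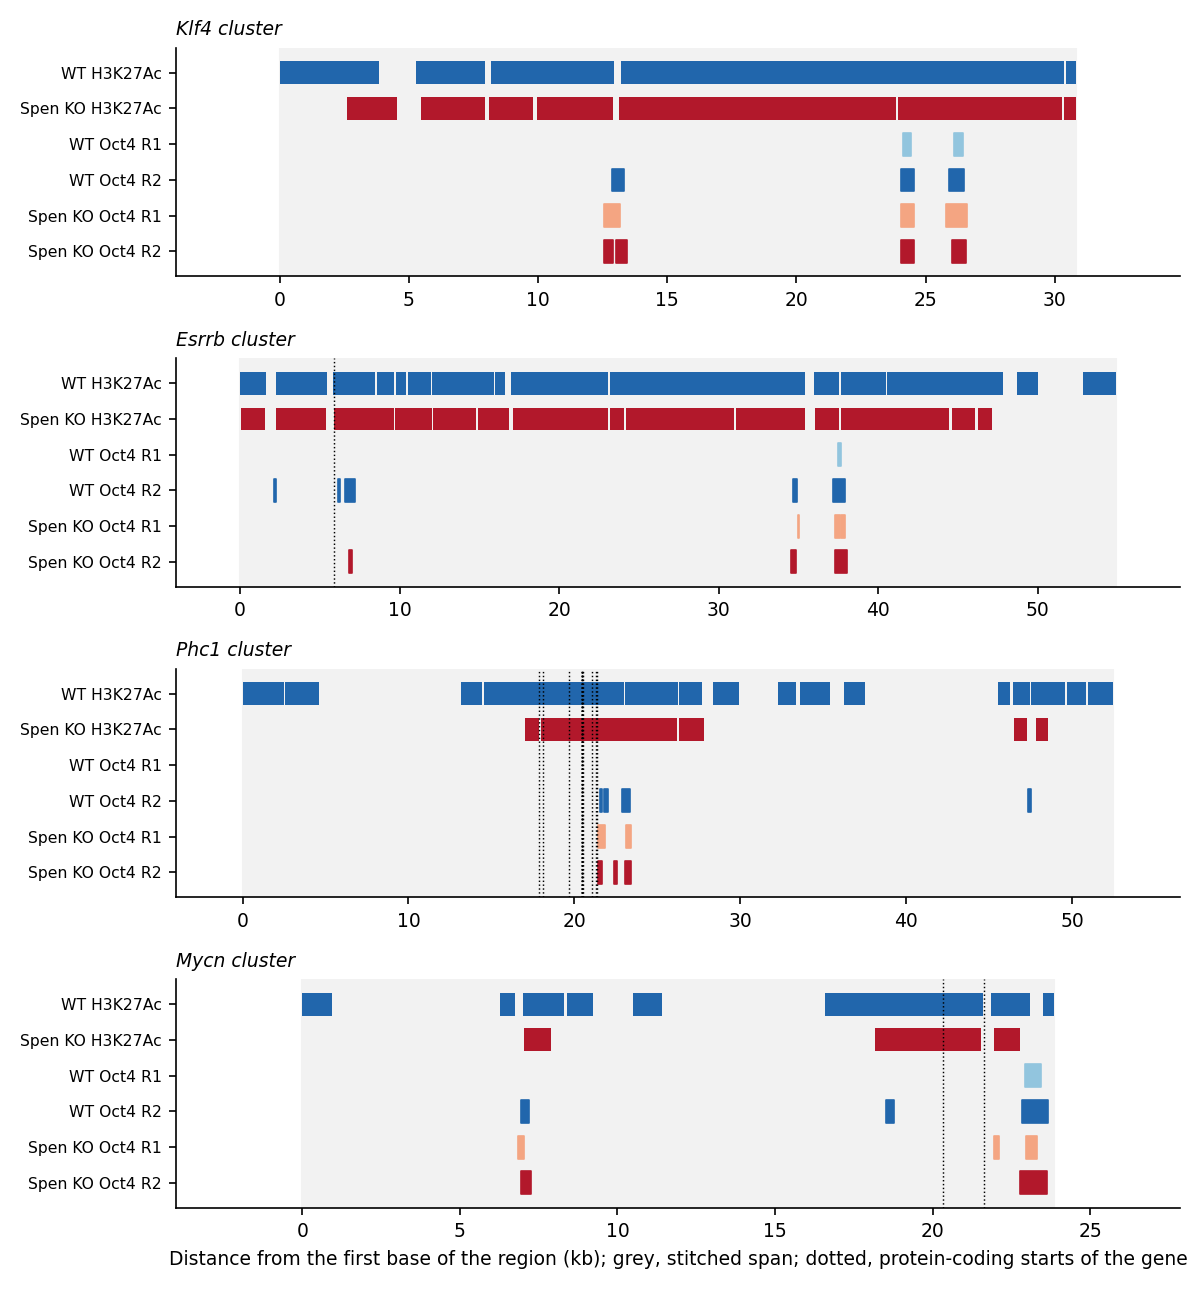
Peaks of 6 lists across the Klf4, Esrrb, Phc1 and Mycn clusters, against distance (kb) from the first base of the cluster, with the stitched span in grey and protein-coding starts of the gene as dotted lines. Peaks that cover a start are drawn but are no members. Klf4 and Esrrb keep most of their H3K27Ac cover in Spen KO, and Phc1 and Mycn lose much of it, while Oct4 peaks of several libraries recur at the same places.

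Near LIF, STAT3 and BMP genes, 13 of 24 peaks (54.2%) in 4 clusters were kept, and in none of the 4 were all peaks kept. Pim1, a kinase induced by STAT3, kept 5 of 9 and Socs3, a feedback inhibitor of LIF signalling, 3 of 5, with Oct4 folds of 6.74, 6.19, 6.72 and 6.93. Near Nodal and TGF-beta genes, 13 of 21 peaks (61.9%) in 6 clusters were kept, and in none of the 6 were all or no peaks kept. Lefty1 and Lefty2, inhibitors of Nodal, shared 1 cluster with 3 of 4 kept and Oct4 folds of 6.35, 5.88, 10.6 and 10.1. Nodal itself kept 2 of 3, with folds of 6.08, 9.79, 6.85 and 8.85. Near FGF, Wnt and Notch genes, 28 of 42 (66.7%) were kept in 8 clusters: Spry2, an inhibitor of FGF signalling, kept 7 of 7, and Etv5, a transcription factor downstream of FGF, 5 of 10.

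Chromatin regulators kept 42 of 58 peaks (72.4%) in 11 clusters. Jarid2, a partner of Polycomb repressive complex 2, kept 6 of 6 peaks at its start, and Tet2, which oxidises 5-methylcytosine, 6 of 6, both with Oct4 in all 4 libraries. Phc1, a subunit of Polycomb repressive complex 1, kept 4 of 14 in chr6:122269191-122321679, and WT peaks covered 31030 bp of it against 12071 bp for Spen KO. It had no Oct4 peak in WT R1 and folds of 10.1, 9.35 and 8.80 in the others. The cluster next to Spen, 20931 bp from its start and outside the gene, kept 6 of 6, with folds of 8.65, 10.7, 7.48 and 11.7.

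The largest clusters by peak number lay at Cd9, Trim71, Tns3, Manba, Myh9 and Rpl30-ps6. Cd9, a tetraspanin of the cell surface, kept 18 of 28 peaks, and Trim71, an RNA-binding target of let-7, 14 of 25. Tns3 kept 9 of 24 and Manba 15 of 21. Myh9, the heavy chain of non-muscle myosin IIA, kept 2 of 18, and WT peaks covered 39757 bp of it against 4110 bp for Spen KO. Oct4 was called there in WT R1 alone, at a fold of 8.46.

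Of the 169 clusters with no peak kept, those with the highest mean score were nearest to Peg3, Ctbp2, Myo3b, Nwd1, Egln3 and Accsl. The Peg3-nearest cluster, chr7:6711957-6725459, lay 28825 bp from the start of this imprinted gene, and WT H3K9me3 covered 12503 bp of its 13503 bp span, against 1044 bp in Spen KO. Oct4 was called in 3 or 4 libraries in 13 of the 169 (7.69%), against 227 of all 1018 clusters (22.3%). The 3 with all 4 libraries were nearest to Arid2, Lima1 and Gpx4, with Arid2 folds of 5.12, 13.0, 8.47 and 9.47.

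The share of member peaks with Oct4 was near that of all H3K27Ac peaks in 3 of the 4 libraries and below it in WT R1. At the member peaks, Oct4 overlapped 74 (1.51%) in WT R1, 463 (9.48%) in WT R2, 368 (7.53%) in Spen KO R1 and 453 (9.27%) in Spen KO R2. In all autosomal WT H3K27Ac peaks these shares were 3.57%, 9.3%, 7.93% and 9.03%. An Oct4 peak lay in the span of 109 clusters (10.7%) in WT R1, 386 (37.9%) in WT R2, 310 (30.5%) in Spen KO R1 and 367 (36.1%) in Spen KO R2. WT R1 was thus lowest on both counts, and the other WT library was the highest, so the Spen KO values lay between those of WT.

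In the full lists, the genotypes overlapped in the share of clusters with Oct4. The means were 24.3 ± 19.2% in WT and 33.3 ± 3.96% in Spen KO (SD, n = 2 libraries each), a difference of 8.94 points with a two-sided exact permutation p of 1, where the smallest p of this design is 0.333. Without WT R1 the difference turned to -4.67 points. With each Oct4 list shortened to the length of the shortest by fold enrichment, both Spen KO libraries lay above both WT libraries, by 9.63 points on average for clusters and 2.98 for member peaks (exact permutation p = 0.333 for each). WT R1 was that shortest list, so it stayed whole, with 73.0% of its peaks within 1000 bp of a start. The comparison at equal length was not repeated without WT R1. At member peaks the difference of the means was 2.91 points (exact permutation p = 1), and -1.07 points without WT R1. The Oct4 share of clustered peaks was below that of isolated distal peaks in 3 of 4 libraries. Clustered minus isolated distal peaks gave 0.16 points in WT R1, -2.32 in WT R2, -1.41 in Spen KO R1 and -2.00 in Spen KO R2, a mean of -1.39 ± 1.10 (SD, n = 4; exact sign permutation p = 0.25). Without WT R1 the mean was -1.91 points.

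The clusters that kept their peaks were those with Oct4 most often. Among clusters with all peaks kept, Oct4 was called in 13.3% in WT R1, 47.8% in WT R2, 43.3% in Spen KO R1 and 48.3% in Spen KO R2. Among clusters with none kept the shares were 4.73%, 15.4%, 10.1% and 14.2%. The difference averaged 27.1 ± 12.4 points (SD, n = 4 libraries) and was positive in 4 of 4, with an exact sign permutation p of 0.125, the smallest possible. Without WT R1 it was 33.3 points, and in the stronger 50% of the WT list 17.6.

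**Figure D5:**
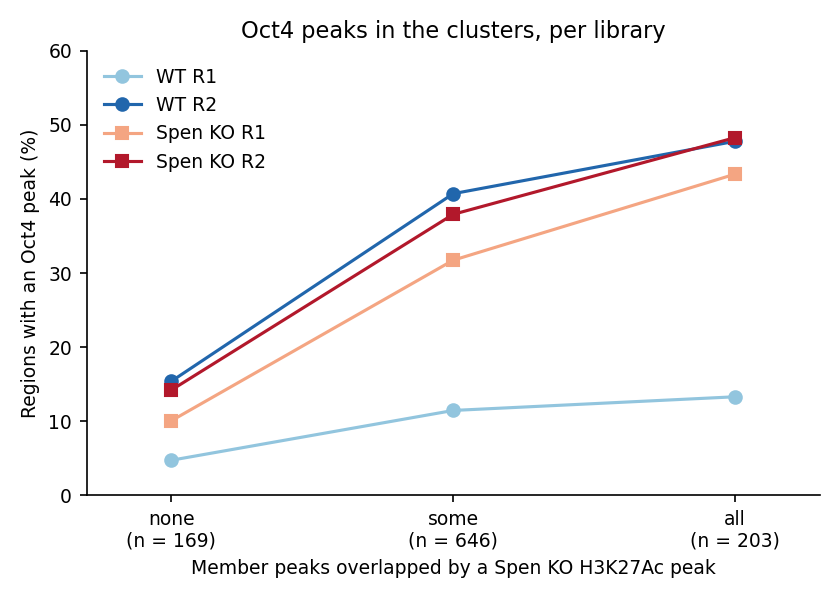
Share of clusters (%) with an Oct4 peak in each of the 4 libraries, for clusters with none, some or all of their H3K27Ac peaks kept in Spen KO. Each line is 1 library, and all 4 rise from none to all, WT R1 from 4.73% to 13.3% and the others to between 43.3% and 48.3%.

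Across libraries, 495 clusters had no Oct4 peak, and 170, 126, 158 and 69 had one in 1, 2, 3 and 4 libraries. From 0 to 4 libraries, the share of clusters with all peaks kept was 14.9%, 20.6%, 23.0%, 27.2% and 31.9%, beside median mean scores of 15.5, 17.2, 18.5, 19.4 and 19.9. The most frequent pattern with Oct4 in more than 1 library was WT R2 with both Spen KO libraries, in 220 clusters with or without WT R1. In 34 clusters Oct4 was called in Spen KO R1 and R2 but in neither WT library, and in 3 the reverse held. With WT R1 left out, the same 2 counts were 34 clusters with both Spen KO libraries but not WT R2, and 75 with WT R2 but neither Spen KO library. The larger count changed sides, but the 2 counts without WT R1 follow unlike rules. The WT side then rested on WT R2 alone, the longest list at 4111 peaks, while the Spen KO side still needed both libraries. Counts of this kind outside the clusters are not given here, so none of these is read as a trait of clusters. The strongest of the 34 was nearest to Fbrsl1, with folds of 11.5 and 9.13 in Spen KO R1 and R2 and 3 of 3 peaks kept. Spp1, which encodes the secreted protein osteopontin, was among them at folds of 7.48 and 8.80, with 3 of 5 kept.

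The median GC content of 500 bp windows at the peak centres was 48.6%, against 48.4% in isolated distal and 58.0% in promoter peaks. The octamer was in 2.54% of the clustered windows, 1.81% of the isolated and 1.78% of all autosomal ones. The Sox-Oct core was in 1.31%, 1.91% and 1.27%, so the 2 motifs differed from isolated peaks in opposite directions. The Esrrb motif was in 2.01%, 1.64% and 1.59%, the Klf motif GGGTGTGG in 6.20%, 6.36% and 6.12%, and the Stat3 motif TTCCNGGAA in 1.86%, 2.12% and 1.79%. All motifs were searched on both strands.

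The Esrrb motif was more frequent at distal Oct4 summits inside clusters than outside in each library, though few summits inside carried it. In 200 bp windows at the summits it occurred in 5.81% inside clusters and 0.77% outside in WT R1, 3.02% and 1.80% in WT R2, 3.53% and 1.01% in Spen KO R1, and 2.59% and 1.81% in Spen KO R2. The mean difference was 2.39 ± 1.92 points (SD, n = 4 libraries), higher in 4 of 4 (exact sign permutation p = 0.125, the smallest possible, and 0.156 adjusted over the 5 motifs). The Klf and Stat3 motifs were also higher inside in 4 of 4 libraries, by 2.65 and 0.74 points on average, and the octamer was lower in 4 of 4, by a mean difference of -0.92 points. The Sox-Oct core was higher inside in 1 of 4, at a mean of -1.09 points (exact sign permutation p = 0.375). The WT R1 shares rested on 86 summits inside clusters, 5 of them with the Esrrb motif. In WT R2, Spen KO R1 and Spen KO R2 that motif was at 17, 16 and 13 summits inside. Its Wilson intervals inside and outside overlapped in WT R2 and Spen KO R2 and lay apart in WT R1 and Spen KO R1. Stat3 was at 2, 7, 6 and 6 summits inside in the 4 libraries. In 220 clusters Oct4 was called in WT R2 and both Spen KO libraries. Summits of these libraries can therefore share sequence, which the sign permutation test over libraries does not allow for. Without WT R1 the mean difference was 1.51 points for Esrrb, 2.06 for Klf, 0.38 for Stat3, -1.11 for the octamer and -1.81 for the Sox-Oct core.

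H3K4me3, a mark of promoters, was also common in the clusters. It overlapped 1924 member peaks in WT (39.4%) and 1570 in Spen KO (32.1%), where the shares of all autosomal WT H3K27Ac peaks were 57.4% and 51.9%. For isolated distal peaks they were 36.3% and 28.9%, and for promoter peaks 95.1% and 93.2%. By cluster, 798 (78.4%) held an H3K4me3 peak anywhere in the span in WT and 728 (71.5%) in Spen KO. Both genotypes had one in 695, WT alone in 103 and Spen KO alone in 33. Clustered peaks on WT H3K4me3 were kept in 61.4% and the others in 47.7%, at median score percentiles of 61.5 and 35.4.

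H3K9me3, the mark of silenced chromatin laid down over repeats, touched fewer clusters. It overlapped 437 member peaks in WT (8.95%) and 281 in Spen KO (5.75%), against 8.01% and 5.37% of all autosomal WT H3K27Ac peaks. Isolated distal peaks stood at 14.3% and 9.99%. By cluster, 241 held a WT H3K9me3 domain and 177 a Spen KO one, with 160 in both, 81 in WT alone and 17 in Spen KO alone. Clustered peaks on WT H3K9me3 were kept in 72.1% and those off it in 51.2%, at median score percentiles of 57.7 and 43.9. Polr3k was nearest to a cluster in which H3K9me3 covered the whole 15228 bp span in both genotypes, and all 8 of its H3K27Ac peaks were kept. At the Mfap3-nearest cluster, the mark covered 19263 bp for WT against 2990 bp for Spen KO, and 5 of 8 peaks were kept. That cluster held 2 peaks of multi-copy sequence, in which at least 50% of the 31-base words occur 10 or more times in the genome. Over all clusters, 43 member peaks (0.88%) were multi-copy, in 36 clusters, against 3.36% of isolated distal peaks, and they were kept in 35 cases (81.4%).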

How the data were processed

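ChIP-seq of H3K27Ac, H3K4me3, H3K9me3 and Oct4 gave 10 peak lists from 16 ChIP and 12 input libraries. Per the methods, the authors mapped read pairs to mm9 with Bowtie2, removed duplicates with Picard and called peaks over input with MACS2 at q 0.01, and the H3K27Ac and H3K4me3 lists keep peaks of 2 libraries below an irreproducible discovery rate of 0.05. Tool versions are not given in the sources used here. The deposited H3K27Ac and H3K4me3 lists give 1 value per library and peak, of unstated kind, and their mean is the score used here. The deposited Oct4 lists hold a score, a fold enrichment over input and −log10 p and q values, of which the fold and summit were used. The deposited H3K9me3 lists hold domains of 200 bp windows with a p-value and a score of unstated meaning, neither of them used, and their caller is not given in the sources used here. Read depth is unknown, since the lists hold no counts.

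Distances were taken to 46028 starts of protein-coding transcripts of GENCODE vM1, with Python 3.11.15, numpy 2.4.6, pandas 2.3.3, scipy 1.17.1, pysam 0.24.0 and matplotlib 3.10.9. The overlap code was checked against bedtools 2.31.1 on simulated intervals. An overlap was at least 1 bp. Exact permutation tests were two-sided, over libraries. Stitching, overlap, word-count and permutation code was tested on simulated data. Clusters were named if within 50 kb of a pluripotency gene, among the 6 with most peaks, the 6 strongest with no peak kept, the 6 with the highest Oct4 fold in all 4 libraries, the 4 strongest per genotype with Oct4 in that genotype alone, the 4 most covered by H3K9me3, or up to 4 per other gene list by number of peaks. Clusters at Nodal, those 50 to 100 kb from pluripotency genes, and lost clusters with Oct4 were named after their values were seen. Members, lists and rules were chosen with earlier results of these data known. Tcfcp2l1 and Tcfap2c were matched through RefSeq synonyms, and 121 of 122 listed genes were found. Alternatives were other gaps, peak numbers, distances, overlaps, windows and list lengths, and each Oct4 library left out. The alternatives for motifs, for kept against not kept peaks and clusters and for covered bases, the starts of all transcripts and the removal of multi-copy peaks were chosen after seeing the data.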

Additional observations from a re-analysis of the deposited data

How the results depend on the processing

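The share of clustered peaks kept was 55.4% with a gap of 5000 bp, 64.1% with Spen KO peaks up to 1000 bp away counted, 80.7% in the stronger 50% of the WT list, 60.7% with H3K27Ac lists of equal length and 50.7% in 500 bp windows. In the first 4 of these settings the share of clusters with all peaks kept was 23.9%, 33.2%, 56.9% and 29.7%. With 4 or more peaks, 614 clusters remained, 15.0% with all and 11.2% with no peak kept, and the stronger list gave 325 clusters, 5.85% with none. Clustered minus isolated was 9.68 points with the 5000 bp gap, 5.08 with 20000 bp and 12.3 with the 1000 bp distance. Spen KO clusters had 82.1% of peaks kept in WT with that distance and 88.1% in the stronger list. Within 100 kb of a cluster lay 17.4% of all genes. The cause of these shifts was not tested. Leaving out 1 Oct4 library moved Spen KO minus WT between -4.67 and 22.5 points for clusters and between -1.07 and 6.89 for peaks, and it turned negative without WT R1. Kept minus not kept stayed between 9.09 and 12.9 and all minus none between 24.8 and 33.3, though for the former Oct4 lists of equal length gave 7.44 and 500 bp windows 3.05, and for the latter the stronger list gave 17.6, Oct4 lists of equal length 19.9 and 4 or more peaks 36.8. With the replicate number as a block the difference was 8.94 for clusters and 2.91 for peaks (exact permutation p = 1). Over the clusters, the Oct4 deviations of same-numbered libraries correlated at 0.103, and 2 pairs are too few to show that numbers pair samples.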
